A study of Mus musculus with 6 samples.

Results

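The ribosomal DNA copy on chromosome 17 is the stretch of the mouse genome that holds Rn18s-rs5, a pseudogene of the 18S ribosomal RNA, and AY036118, a long noncoding RNA gene that overlaps 1 end of it. The called regions that overlap chr17:39840000-39900000 (GRCm38, the build also called mm10) were taken, which gave 2 of the 230 regions in the authors' deposited table of CG methylation differences. They were chosen by position, but they are in the table only because the authors called them on the levels described here, so no test was made on those levels. The samples are CA1, the hippocampal field of pyramidal neurons, laser-dissected from frozen brains of 3 Neil3 -/- mice (N3 -/- in the labels) and 3 wild type mice, all male, on a C57Bl6 background, 3 to 6 months old and taken from the home cage with no intervention. NEIL3 is a DNA glycosylase of base excision repair, and the labels do not say how Neil3 was disrupted or which cells lack it. Whole-genome bisulfite sequencing was used, which reads a methylated cytosine as cytosine and an unmethylated one as thymine, and cannot separate 5-methylcytosine from 5-hydroxymethylcytosine.

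Ribosomal DNA encodes the long precursor that RNA polymerase I transcribes in the nucleolus and that is cut into the 18S, 5.8S and 28S ribosomal RNAs. Mammalian genomes carry many near-identical copies in tandem arrays on several chromosomes, most of which are missing from the genome assembly. In a given cell some copies are transcribed and others are kept silent, and CpG methylation at the promoter is a mark of silent copies. Rn18s-rs5 and AY036118 are known from mouse sequencing data as assembled loci to which ribosomal RNA or ribosomal DNA reads map. A level given for this locus can therefore be a mean over many copies, cells and alleles, and the table does not separate them.

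Methylation at the ribosomal DNA copy was low in both groups and higher in Neil3 -/- CA1 than in wild type CA1, by 0.101 and 0.111 on a scale of 0 to 1 in its 2 called regions. The larger region, at chr17:39845022-39847353, had an authors' mean level of 0.276 in Neil3 -/- and 0.175 in wild type, a difference of 0.101 and a ratio of 1.58. Put as the unmethylated share, this is 0.724 in Neil3 -/- and 0.825 in wild type. The smaller region, at chr17:39848202-39848495, had an authors' mean level of 0.271 in Neil3 -/- and 0.160 in wild type, a difference of 0.111 and a ratio of 1.69. By these means, the unmethylated share was thus the larger one in both regions and in either genotype. A mean does not show whether single CpGs were methylated in full or in part, and it covers only the called regions. Weighted by CpG number, the authors' means of the 2 regions together were 0.275 in Neil3 -/- and 0.173 in wild type, a difference of 0.102.

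**Figure D1:**
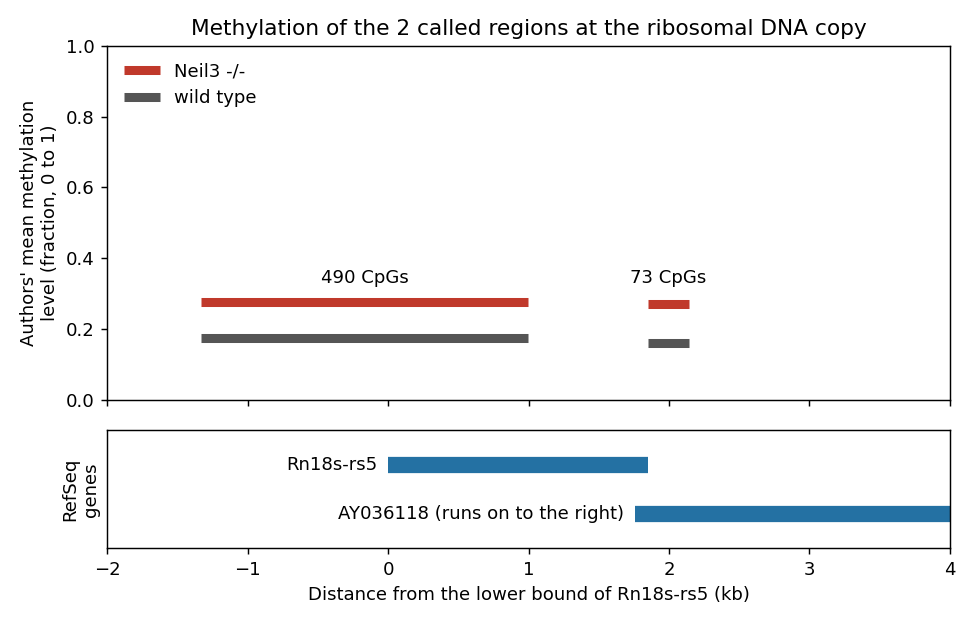
The upper panel plots the authors' mean methylation level (fraction, 0 to 1) of the 2 called regions in Neil3 -/- (red) and wild type (grey) against the distance in kb from the lower bound of Rn18s-rs5, each bar spanning its region, and the lower panel shows the RefSeq genes. The red bars lie at 0.276 and 0.271 and the grey bars at 0.175 and 0.160; the authors' table gives 1 mean per group, so there are no error bars.

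The table gives 1 mean per group, with no column for single animals and none for coverage. So the depth behind these levels is unknown, and the spread between the 3 animals of a group, against which 0.101 and 0.111 would have to be read, cannot be given. Which genotype is the first group rests on the sheet title alone, which names wild type first. Both regions were higher in Neil3 -/-, against 29.1% of all 230 called regions and 54.5% of the 112 called regions outside chromosome 8, the chromosome that carries Neil3. Nothing is read from this count, since the authors' call on this contrast chose the regions and both lie in the same copy.

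The 2 regions resembled each other in level. The larger region exceeded the smaller one by 0.00521 in Neil3 -/- and by 0.0150 in wild type. They differed in extent, with 490 CpGs over 2331 bp in the larger region and 73 CpGs over 293 bp in the smaller one, lengths being end minus start. The larger region thus held 87.0% of the 563 CpGs of the 2 regions. With both end bases counted, the regions are 2332 bp and 294 bp long, are separated by 848 bp in which no region was called, and span 3474 bp in all. Whether those 848 bp had too few reads, a smaller difference or none cannot be seen in a list of called regions.

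By the RefSeq annotation, Rn18s-rs5 lies at chr17:39846354-39848202 and is 1849 bp long. Of the 2332 bp of the larger region, 1000 bp lay in it and covered 54.1% of it, at the end with the lower coordinates. The remaining 1332 bp of the region lay below the annotated gene, in sequence without an annotated gene. The uncalled stretch between the regions took up 45.9% of Rn18s-rs5. AY036118 lies at chr17:39848112-39898385 and shares 91 bp with Rn18s-rs5. The smaller region lay inside AY036118 and covered 0.585% of its 50274 bp, at the end of the gene away from its start, which is on the minus strand. It shared 1 bp with Rn18s-rs5, an overlap that depends on whether the authors' positions count from 0 or 1, which the labels and headers leave unstated. No other annotated gene overlapped either region. The nearest gene below the locus was Esp15, of the family of exocrine gland peptides, 199355 bp from the larger region. The nearest above AY036118 was Esp38 of the same family, 102025 bp from the smaller region, a distance that includes most of AY036118.

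CpG density was where the locus stood at the top of the table. The smaller region held 24.9 CpGs per 100 bp and the larger one 21.0, the highest and second highest of the 230 regions. The third was a region on chromosome 8 without an annotated gene, at chr8:20557481-20557946, with 20.9. The median over the other 228 regions was 5.39 CpGs per 100 bp, and over the 110 other regions outside chromosome 8 it was 8.43. On average a CpG was listed every 4.76 bp in the larger region and every 4.01 bp in the smaller one.

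These densities depend on what the deposited CpG number counts, which the labels and headers do not say. Reference sequence of at least 50 bp was at hand for 8 other called regions, where they overlap a gene start. In 8 of the 8 the deposited density exceeded the density of CG in that sequence, by a ratio of 1.22 to 2.35 with a median of 1.49. These stretches cover only part of each region, so the check does not settle whether a cytosine on each strand was counted. If it was, the densities would be 10.5 CpGs per 100 bp in the larger region and 12.5 in the smaller one. With every CpG number halved, their rank in the table would stay as it is. The smaller region's number of 73 is odd, however, so its CpGs cannot all have been counted on both strands. Under an uneven count the ranks could change, since the larger region at 21.0 lay close to the third at 20.9.

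The RefSeq sequence at the start of AY036118 is shown to set the far end of that gene beside the CpG-dense stretch at Rn18s-rs5. Of the 2 genes, 1 was matched in the table of starts. The window runs from 250 bases before to 50 after the start, at chr17:39898336-39898635 on the minus strand (GRCm38.p6), and capitals mark CG:
AY036118: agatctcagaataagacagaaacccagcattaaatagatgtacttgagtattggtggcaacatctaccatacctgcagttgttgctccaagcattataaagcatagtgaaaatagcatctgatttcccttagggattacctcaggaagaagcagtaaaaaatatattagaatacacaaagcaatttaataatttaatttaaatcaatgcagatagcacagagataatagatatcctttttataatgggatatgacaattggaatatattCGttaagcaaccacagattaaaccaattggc

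This window held 1 CG in 300 bases and had a GC content of 32.7%. CG reads the same on both strands, and it occurred at least once in 94.6% of the 32851 windows of that kind, with a median of 7 per window. The density of the larger region at Rn18s-rs5 would put 63.1 CpGs into 300 bases, or 31.5 if both strands were counted. Of all windows, 0.0122% reached the first of these numbers and 9.52% the second. No called region lay in the window, which is 49841 bp from the smaller region. The 1 called region inside AY036118 thus lay at the end of the gene away from its annotated start. With 1 CG, the window holds fewer than the 10 CpGs of the smallest called region in the table.

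In the size of the deposited difference the locus stood at the bottom of the table. The larger region had the smallest deposited difference of the 230 regions and the smaller region the second smallest, 0.101 and 0.103 in size. The deposited column runs as wild type minus Neil3 -/- and is negative for both. The lowest size in the table, 0.101, is thus the larger region's own value. The labels and headers state no lower limit on the difference. The order depends on the column used. By the difference of the authors' means the larger region ranked 4th from the smallest and the smaller region 6th. The 3 smallest by means were regions in Hnrnpa3 (0.0227), Usp38 (0.0449) and the pseudogene Rybp-ps on chromosome 13 (0.1002). By the deposited difference the next size was 0.110, at Zc3h7a on chromosome 16 (chr16:11143681-11144310), where the authors' mean was 0.326 in Neil3 -/- and 0.216 in wild type with 111 CpGs. That region, named after its values had been seen, was also CpG-dense, with 17.6 CpGs per 100 bp. The median size over the other 228 regions was 0.594, and over the 110 others outside chromosome 8 it was 0.399. Denser regions tended to have smaller deposited differences across the table. Spearman's rho of CpG density with size was -0.549 over all 230 regions and -0.537 over the 228 outside the locus. High density with a small difference is thus a trend of the table and not particular to the locus. The regions come from the same animals and were selected by the authors' call, so no p-value is given.

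**Figure D2:**
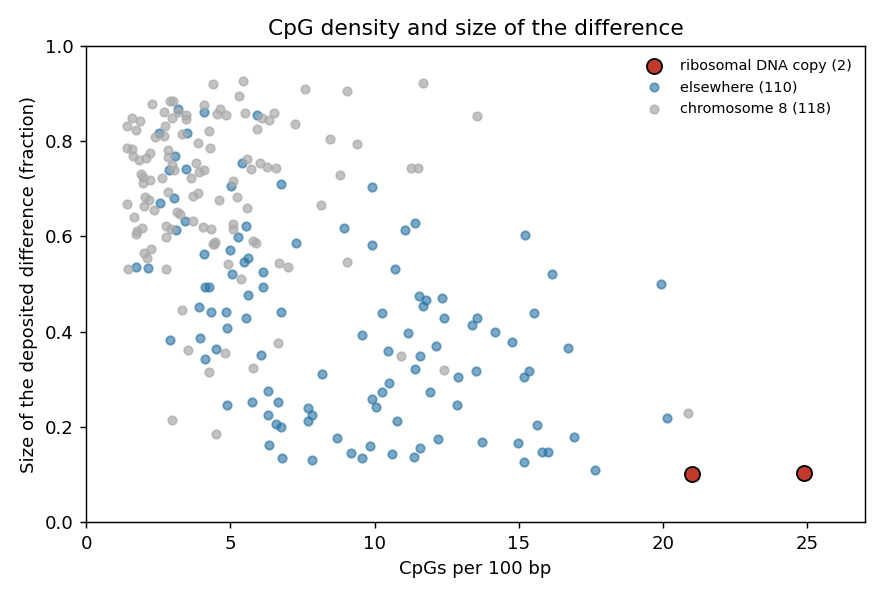
Each point is a called region, with CpGs per 100 bp on the x axis and the size of the deposited difference (fraction) on the y axis; red marks the 2 regions of the ribosomal DNA copy, blue the 110 regions elsewhere outside chromosome 8 and grey the 118 on chromosome 8. The red points sit at the lower right, at 21.0 and 24.9 CpGs per 100 bp and sizes of 0.101 and 0.103. Over all regions, size tended to fall as density rose (Spearman's rho -0.549).

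For the larger region the deposited difference and the difference of the authors' means were the same to within 0.001, as in 213 of the 230 regions. For the smaller region they were not. The deposited difference had a size of 0.103, whereas the means give 0.111, a mismatch of 0.00789. It is 1 of 17 regions with a mismatch above 0.001, and the smallest mismatch of these. The direction was the same by either value. The labels and headers do not say how CpGs were weighted in the 2 columns.

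The q-values of the 2 regions were far apart although their levels were alike. The larger region had q = 2.04e-163 in the authors' deposited table, the smallest of all 230 regions. The smaller one had q = 3.90e-11 in the authors' deposited table, which was rank 72. The second smallest q-value of the table, 2.44e-61, belonged to a region of chromosome 8 (chr8:51734016-51736042) with 113 CpGs and a deposited difference 0.763 in size, with authors' means of 0.0714 in Neil3 -/- and 0.834 in wild type. The third, 4.86e-47, was on the Y chromosome (chrY:90727205-90728981) with 62 CpGs and authors' means of 0.833 in Neil3 -/- and 0.0154 in wild type. The larger region of the ribosomal DNA copy thus combined the smallest q-value with the smallest deposited difference, although 3 regions had a smaller difference of means. A q-value of that kind ranks regions within the authors' test and does not measure the size of a change. The labels and headers do not say what units that test used. With no values per animal, the q-value cannot be read as a measure against the spread between the 3 animals of a group.

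CpG number moved with the q-value. The larger region had the most CpGs of the table, 490, and the smaller region ranked 16th with 73. Over all 230 regions, Spearman's rho of CpG number with −log10 of the authors' q-value was 0.59, and without the 2 regions it was 0.59 (n = 228). For the size of the deposited difference, rho with −log10 q was 0.19 over all regions and 0.21 without the 2. These correlations are across regions of the same 6 animals and the same libraries, the regions were selected by the authors' call, and no p-value is given. The part of CpG number in the q-value of the locus was not tested, and depth is not in the table.

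**Figure D3:**
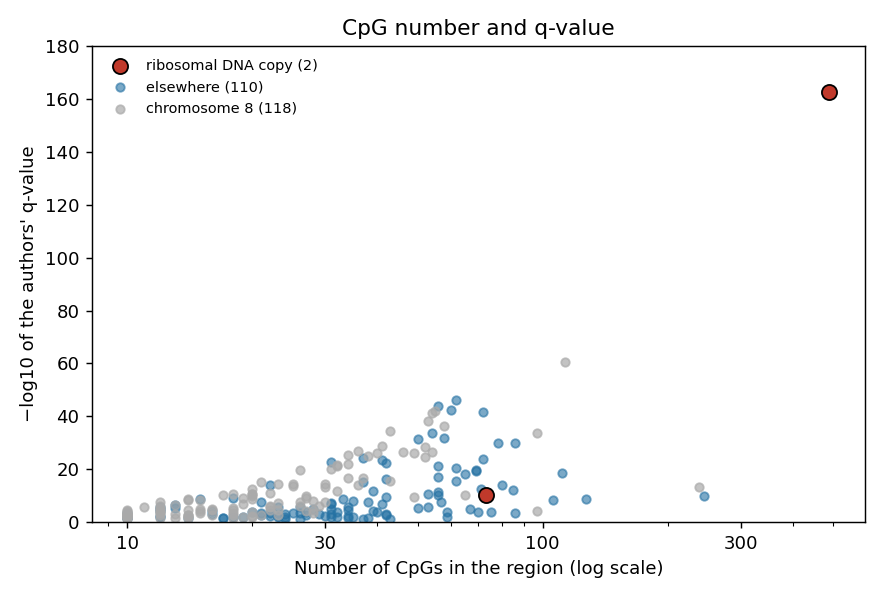
Each point is a called region, with its number of CpGs on a log x axis and −log10 of the authors' q-value on the y axis, coloured as red for the ribosomal DNA copy, blue for regions elsewhere outside chromosome 8 and grey for chromosome 8. The larger region of the copy stands alone at 490 CpGs and a −log10 q of 163, and the smaller one lies among the other regions at 73 CpGs and 10.4.

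Other regions with small differences had fewer CpGs than the larger region, as all others must, since it had the most of the table. Of the 12 regions with a deposited difference under 0.15 in size, 10 were outside the locus, with a median of 35.5 CpGs and at most 111. The q-values of these 10 in the authors' deposited table lay between 5.96e-25 and 0.0149. The regions with the most CpGs after the larger region both overlapped the start of a gene. The region in Hnrnpa3, which encodes an RNA-binding protein, had 244 CpGs (chr2:75659226-75661366), and authors' means of 0.0371 in Neil3 -/- and 0.0144 in wild type. The region in Usp38, which encodes a ubiquitin protease, had 238 CpGs (chr8:81014079-81015998), and authors' means of 0.0885 in Neil3 -/- and 0.0436 in wild type. In these 2 regions the deposited difference was 0.321 and 0.320 in size, far from the difference of their means, which was 0.0227 and 0.0449. The larger region at Rn18s-rs5 was therefore the 1 region of the 3 with at least 200 CpGs in which the deposited difference matched the means within 0.001.

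In 7 of the 230 regions both authors' means were under 0.3, and the locus held 2 of these. All regions were called for a difference between the groups, so 2 low means in 1 region can hardly be common in such a table. The limit of 0.3 also lies just above the locus's own Neil3 -/- levels of 0.276 and 0.271. Of the 7, 5 were higher in Neil3 -/-, against 29.1% of all 230 regions and 54.5% of those outside chromosome 8. These 5 include the 2 of the locus and the regions in Hnrnpa3 and Usp38, so nothing is read from the count. Outside chromosome 8, 59 other regions were higher in Neil3 -/-. Their median authors' mean was 0.716 in Neil3 -/- and 0.167 in wild type. The wild type levels of the locus were thus near that median, while its Neil3 -/- levels were far under it. In the order of all regions from the highest authors' mean, the larger and smaller regions ranked 106 and 107 in Neil3 -/- and 193 and 200 in wild type.

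**Figure D4:**
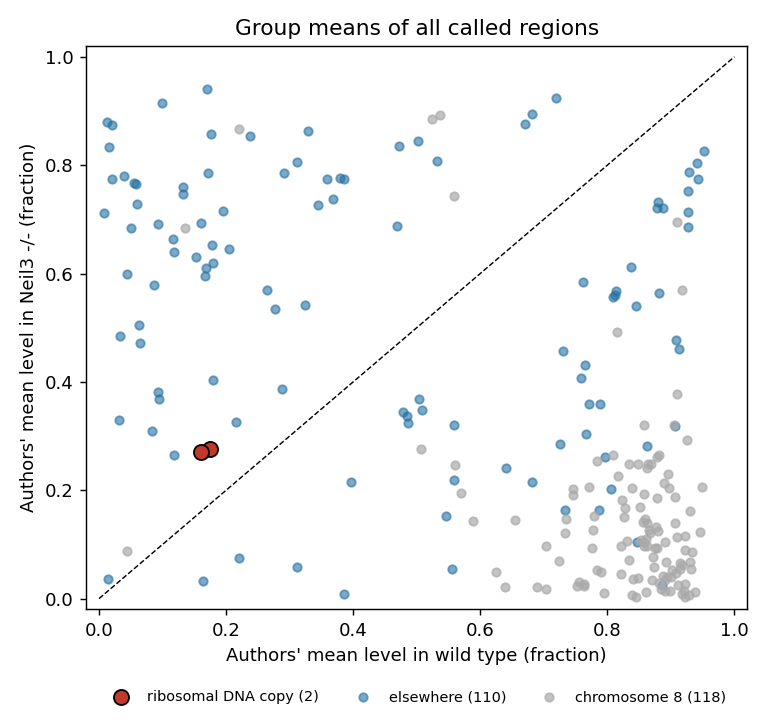
Each point is a called region, with the authors' mean level in Neil3 -/- on the y axis and in wild type on the x axis (fractions), and the dashed line marks equal levels; red is the ribosomal DNA copy, blue regions elsewhere outside chromosome 8 and grey chromosome 8. The 2 red points lie just above the line, at 0.276 in Neil3 -/- and 0.175 in wild type and at 0.271 in Neil3 -/- and 0.160 in wild type, away from the regions with large gains at the upper left.

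Other groups of neighbouring regions differed more in their median level, but not in every region. The 10 regions of the repeated gene cluster on chromosome 13 were all higher in Neil3 -/-, with median authors' means of 0.780 in Neil3 -/- and 0.336 in wild type and a median of 4.30 CpGs per 100 bp. Of the 15 regions in the distal part of chromosome Y, 8 were higher by the deposited difference and the others lower. Their medians were 0.485 in Neil3 -/- and 0.205 in wild type, with 8.16 CpGs per 100 bp. Among those lower by the deposited difference, chrY:90761688-90762378 was higher by the authors' means. These were 0.541 in Neil3 -/- and 0.324 in wild type, a difference of 0.217. The smallest deposited difference in size was 0.180 in the cluster on chromosome 13 and 0.311 in that on Y, both above the 0.101 and 0.103 of the ribosomal DNA copy. By the difference of means, however, 1 region of the cluster on chromosome 13, at chr13:66007638-66007987, had authors' means of 0.388 in Neil3 -/- and 0.288 in wild type, a difference of 0.1002 that was under the 0.101 and 0.111 of the copy. No test was made of these differences, because regions are not replicates of the genotypes. Having another called region within 1 kb was not rare, and it held for 42 of the 230 regions.

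Elsewhere on chromosome 17 there were 2 called regions, and both were lower in Neil3 -/-. The nearest, at chr17:40371803-40372265, lay 523308 bp above the smaller region outside annotated genes, with authors' means of 0.460 in Neil3 -/- and 0.913 in wild type. The other, at chr17:70957811-70958122 in the predicted gene Gm46595, had authors' means of 0.0546 in Neil3 -/- and 0.556 in wild type. No region was called below the locus on this chromosome. The higher levels on chromosome 17 were thus confined, among called regions, to the 2 at the ribosomal DNA copy.

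Genes that make, transcribe or silence ribosomal DNA held no called region. Of 86 listed genes 78 were matched in RefSeq, 77 of these had a usable position, and the 2 with a region were Rn18s-rs5 and AY036118 themselves. The other 75 had 0, against 0.139% of all 49603 annotated genes with a region, so 0 is what that background gives for a list of this size. Beside 4 placed ribosomal RNA loci, the list held 20 placed genes for RNA polymerase I and its factors, such as Polr1a, its largest subunit, and Ubtf, which binds active ribosomal DNA. It held 17 of silencing, such as Baz2a, the large subunit of the nucleolar remodelling complex, and the DNA methyltransferases Dnmt1, Dnmt3a and Dnmt3b. It held 16 of opening, such as Tet1, Tet2 and Tet3, which oxidise 5-methylcytosine, and 20 of the nucleolus, such as Ncl and Fbl. With gene bounds extended by 5 kb on each side the count was the same. A gene without a called region can still differ by less than the table lists. Of the 62 placed genes annotated as ribosomal RNA, 48 of them on chromosome 8, 0 held a called region. The background of 0.139% gives 0 for a list of this size too. These genes were not split by the kind of ribosomal RNA, so they are not shown to be copies of the same unit.

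The tissue label could not be checked at this level. None of 17 marker genes held a called region, among them Wfs1 and Fibcd1 of CA1 neurons, Prox1 of dentate granule cells and Mbp of oligodendrocytes. The table gives no level for a gene without one. The authors' second deposited table, which names 36 genes, lists neither Rn18s-rs5 nor AY036118 and no gene of chromosome 17.

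Mapping limits apply to every level of this locus. Reads were not analysed here, so reads of this copy and reads of the ribosomal DNA arrays cannot be told apart. A higher mean in Neil3 -/- can come with more methylation on the same copies or with a different mix of methylated and unmethylated copies, and a mean per group cannot tell these apart. The number of ribosomal DNA copies in the 6 animals was not analysed here.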

How the data were processed

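Per the labels' protocols, CA1 came from 8 µm sections, and DNA fragments of about 250 bp with methylated adaptors were treated with bisulfite and sequenced on Illumina instruments. The labels give the molecule as RNA. Per the submitters' processing notes, BSMAP and GRCm38 (mm10) were used. No label or header names the caller of regions, its filters or its handling of reads that map to several places. The authors deposited, per region, a mean level per group as a fraction, a q-value (at most 0.0475), a CpG number (at least 10) and a difference. A second deposited table gives gene bounds and GC content in percent, from which only gene names were used.

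Regions were selected by overlap with the window, and density is CpGs over end minus start. Genes come from RefSeq (GRCm38.p6, 49603 genes with usable positions), and CG was counted in its sequence windows. Values are descriptions. The permutation test planned for values per animal was not run, since the table has none. The selection, direction and rank code was tested on simulated data. Python 3.11.15 and pandas 2.3.3 were used. The members and lists were chosen with earlier results of these data known. Named were the 2 regions and their genes, the nearest regions on chromosome 17, listed genes with a region, and the 3 regions with the most CpGs, the highest density and the smallest q-value. Zc3h7a and the groups on chromosomes 13 and Y were added after their values had been seen.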

Additional observations from a re-analysis of the deposited data

How the results depend on the processing

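Of 44 alternative values, 32 stayed at the reported value or, for counts and ranks, within 1.5 times of it, and 12 moved, and 0 reversed direction. Many of the 32 could not have moved. Other bounds, a q-value of at most 0.01 and at least 20 CpGs each kept the same 2 regions. A rank of 1 or 2 cannot fall among fewer regions that still hold both. The count of 32 is therefore no measure of robustness. With a deposited difference of at least 0.2 required, 0 regions and 0 higher regions were left, so no level or density could be given there. The CpG-weighted difference of 0.102 was 0.101 from the deposited differences and 0.106 with equal weights. The density over both regions of 21.5 CpGs per 100 bp was 23.0 as the mean of the regions, 21.4 with lengths 1 bp longer and 10.7 if both strands were counted, the last chosen after seeing the data. By the difference of means, also chosen after seeing the data, the larger and smaller regions ranked 4 and 6 from the smallest difference, against 1 and 2 by the deposited one. The rank of 72 of the smaller region in q-value became 33 outside chromosome 8 and 24 outside chromosomes 8 and Y, and its rank of 16 in CpG number became 9 outside both. Leaving out an animal was not possible, because the table holds 1 mean per group. No paired analysis was possible because the deposited table has no column per animal. Depth is unknown, so no limit on a difference can be derived from it.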
